A study of Drosophila melanogaster with 4 samples.

Results

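miR-184 is a conserved miRNA whose hairpin gives a 3p arm of 22 nt and a 5p arm of 21 nt, its 2 members here, out of 524 arms into which the reads of the series were grouped. Members were chosen by sequence: every read sequence that overlapped either catalogue arm by at least 15 nt without a mismatch was counted, which gave 60 distinct sequences for miR-184-3p and 12 for miR-184-5p. The miRNA itself was picked because its reads were shorter at 30 days, so the age differences in length and 3′ ends are given as a description. The libraries are from heads of male flies labelled wild-type, genotype 5905, aged for 3 or 30 days. At each age 1 library was made from untreated total RNA and 1 after periodate oxidation and β-elimination, so that the design asks which small RNAs withstand the treatment and whether age alters that. All 4 groups share the genotype, sex and tissue, and nothing in the labels says how many flies were pooled. Ages are those of the sample titles. For 2 libraries the age characteristic says otherwise; by that characteristic both untreated libraries would be of 3 days and both oxidized ones of 30 days, and no age comparison could be made.

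A miRNA is cut from its hairpin as a duplex, of which usually 1 arm is kept by an Argonaute protein and the other is discarded. In flies AGO2-bound small RNAs are methylated on the 2′ hydroxyl of their last base by Hen1, which shields them from oxidation, whereas most miRNAs sit in AGO1 with a free 3′ end. The 3′ end can also be trimmed after loading, for which the exonuclease Nibbler is known in flies. miR-184 is known for its role in the female germ line and early embryo of the fly, where it is needed for egg production and patterning. In the BDGP6 annotation its hairpin lies on chromosome 2R from 13329402 to 13329501, on the minus strand, inside an exon of the non-coding gene lncRNA:CR44206 on the same strand (exon 2 of its transcript RC and exon 3 of RD). The 3p arm spans 13329420 to 13329441 and the 5p arm 13329460 to 13329480, with 18 nt between them. They were looked up by name in that annotation (BDGP6.54), since the deposited tables hold no positions; the build named for them is dm3.

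Depth was 16112748 reads at 3 days and 17345816 at 30 days without oxidation, and 2091252 and 12105527 with it. With 1 library per group no difference has a replicate check, no p-value is given, and each comparison is of these libraries and not of the conditions. Intervals are exact Clopper-Pearson 95% intervals and, as reads carry no molecular identifiers, cover counting error only. Of the markers looked up for the labelled tissue, miR-276a-3p was at 122500 and 81904 reads per 1000000 reads (RPM) of the untreated libraries at 3 and 30 days, the neuronal miR-124-3p at 1070 and 1067 and miR-137-3p at 109 and 106, whereas 5 arms of the embryonic miR-309 cluster were at 0 to 18.7 RPM in all 4 libraries. The lookup by first bases matched no arm for miR-1-3p and miR-309-3p, which were not analysed here. The data cannot tell apart fewer cells with miR-184 from less of it per cell.

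miR-184-3p, the guide arm, was among the most abundant small RNAs of the head. It had 635211 reads at 3 days without oxidation (39423 RPM) and ranked 9th of all arms. At 30 days without oxidation it had 414196 reads (23879 RPM) and ranked 11th. After oxidation it had 58679 reads at 3 days (28059 RPM, rank 7) and 185688 at 30 days (15339 RPM, rank 9). It thus stayed within a few ranks in the 4 libraries, with the lowest RPM in the 30-day oxidized library.

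miR-184-5p, the star arm, was scarce. It had 63 reads at 3 days without oxidation, 3.91 RPM with an interval of 3.00 to 5.003, and 127 at 30 days, 7.32 RPM (6.10 to 8.71). After oxidation it had 333 reads at 3 days, 159 RPM (143 to 177), and 1130 at 30 days, 93.3 RPM (88.0 to 99.0). Both oxidized libraries lay far above both untreated ones, in RPM and also in rank, which was 91 and 95 with oxidation against 178 and 164 without.

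**Figure D1:**
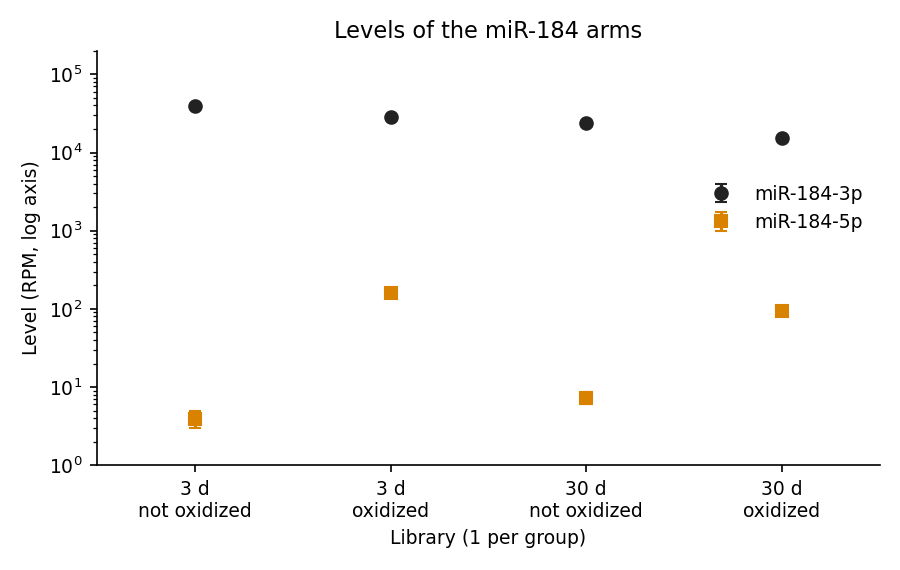
Level of miR-184-3p (circles) and miR-184-5p (squares) in the 4 libraries, in RPM on a log axis; bars are exact 95% intervals of counting error, mostly smaller than the symbols. The 3p arm lies between 15339 and 39423 RPM, and the 5p arm at 3.91 and 7.32 RPM without and 159 and 93.3 RPM with oxidation.

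The balance of the arms within a library needs no scaling between libraries. Without oxidation there were 10083 reads of the 3p arm for each read of the 5p arm at 3 days and 3261 at 30 days. With oxidation there were 176 and 164. The 5p arm took 0.00992% of the reads of both arms at 3 days without oxidation (0.00762% to 0.0127%) and 0.564% with it (0.505% to 0.628%), a 56.9-fold higher share. At 30 days the shares were 0.0307% and 0.605%, a 19.7-fold difference. With oxidation the share at the 2 ages differed 1.07-fold and the intervals overlapped, and without oxidation it was 3.09-fold higher at 30 days, resting on 63 and 127 reads of the 5p arm.

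Scaled by total reads, miR-184-3p was 1.40-fold lower after oxidation at 3 days (log2 -0.49, -0.50 to -0.48) and 1.56-fold lower at 30 days (log2 -0.64, -0.65 to -0.63). Neither direction holds under every scaling: both turned when miR-263a-5p, which took 316403 and 504995 RPM of the oxidized libraries, was left out of the totals (0.046 and 0.35), and at 30 days also with median-of-ratios scaling (0.0034). Relative to the median of the arms compared, which no scaling moves, miR-184-3p was 0.20 higher at 3 days and 0.64 higher at 30 days on the log2 scale. Past 2-fold after oxidation were, of 98 arms with a mean of at least 100 RPM at 3 days, 35.7% on the higher and 43.9% on the lower side, and of 95 at 30 days 29.5% and 52.6%. miR-184-3p was in neither class at either age, and 53 arms had a lower ratio at each age. miR-184-5p was 40.7-fold higher after oxidation at 3 days (log2 5.35, 4.96 to 5.76) and 12.7-fold at 30 days (log2 3.67, 3.41 to 3.95), more than 2-fold under each scaling tried, but its mean level of 81.6 and 50.3 RPM was below the filter, so it is not among the arms counted.

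Without oxidation miR-184-3p was 1.65-fold lower at 30 than at 3 days (log2 -0.72, -0.73 to -0.72). Its log2 ratio lay between -0.71 and -0.83 under the scalings and match rules tried, and 8 of 95 arms had a lower one. Of these 95 arms 5.26% were past 2-fold on the higher and 4.21% on the lower side, and the median arm was at 0.014. With oxidation miR-184-3p was 1.83-fold lower at 30 days (log2 -0.87, -0.88 to -0.86), where the median of 96 arms was -0.65, 27.1% were past 2-fold on the lower and 0.0% on the higher side. That value was 0.22 below the median arm and turned to 0.0043 with TMM scaling. miR-184-5p was 1.87-fold higher at 30 days without oxidation (log2 0.91, 0.46 to 1.36) and 1.71-fold lower with it (log2 -0.77, -0.95 to -0.59); the latter turned to 0.11 with TMM scaling. The age change of the oxidation ratio of miR-184-3p was -0.15 on the log2 scale (-0.16 to -0.13), 0.63 above the median of 98 arms. Its sign turned in each other scaling, to 0.31, 0.52 and 0.80. For miR-184-5p it was -1.68 (-2.15 to -1.21), 0.90 below that median, and -0.72 with TMM and -1.01 with median-of-ratios scaling. The mean level of miR-184-5p over the libraries, 66.0 RPM, was below the filter, so it is not among those 98 arms.

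Nearly all reads of miR-184-3p shared 1 start. They began at base 1 of the catalogue sequence in 99.7% of reads at 3 days and 99.6% at 30 days without oxidation, and in 99.5% and 99.7% with it. The seed, bases 2 to 8 from the 5′ end, which pairs with targets, is therefore the same in nearly all of them. Reads that began 1 base earlier, which shifts the seed, were at 19.5 and 13.1 RPM without oxidation (3 and 30 days) and at 86.1 and 26.3 RPM with it. Their share of the arm was 0.0494% against 0.307% at 3 days and 0.0550% against 0.171% at 30 days, higher after oxidation at both ages.

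The 3′ ends of miR-184-3p differed between the ages. Among reads from base 1, those that ended at base 22, the catalogue end, were 80.4% at 3 days and 62.7% at 30 days without oxidation, and 82.7% and 62.9% with it. Reads that ended at bases 16 to 19, 3 or more bases short of that end, were 3.92% (3.87% to 3.97%) and 22.1% (22.01% to 22.3%) without oxidation, and 5.21% (5.03% to 5.39%) and 18.6% (18.4% to 18.8%) with it. In both classes the libraries of 1 age lay closer to each other than to those of the other age. For each read ending at bases 16 to 19 there were 20.5 of the full length at 3 days and 2.83 at 30 days without oxidation, and 15.9 and 3.38 with it.

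The ends 1 and 2 bases short did not move alike. Ends at base 21 made up 10.4% at 3 days and 7.47% at 30 days without oxidation, a lower share with age, and 8.27% and 11.6% with it, a higher share. Ends at base 20 made up 3.499% and 5.07%, and 2.85% and 5.68%, a higher share at 30 days in both pairs. Reads 1 base longer than the catalogue, ending at base 23, made up 1.81% and 2.62% without and 0.926% and 1.22% with oxidation, so the longer form too had a higher share at 30 days. Base 24 ended 0.0152% to 0.0584% of the reads.

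**Figure D2:**
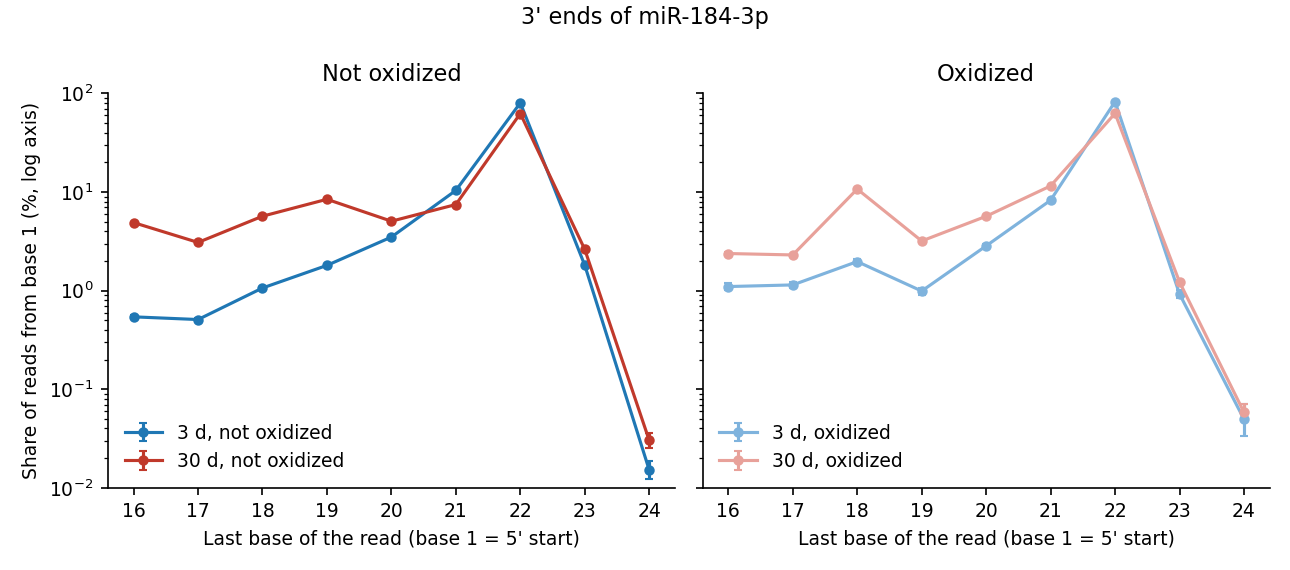
Share of miR-184-3p reads from base 1 by their last base, in percent on a log axis, for libraries without (left) and with oxidation (right) at 3 days (blue) and 30 days (red); bars are exact 95% intervals of counting error. Ends at bases 16 to 19 sum to 3.92% and 22.1% without and 5.21% and 18.6% with oxidation, and in the 30-day oxidized library base 18 stands at 10.7%.

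On the scale of levels the lower amount of miR-184-3p at 30 days lay in the long forms, each length from base 1 being 1 sequence. Without oxidation the 22-nt form went from 31588 RPM at 3 days to 14908 at 30 days, 2.12-fold lower, and the forms of 20 and 21 nt together from 5463 to 2983 RPM. The forms of 16 to 19 nt went the other way, from 1542 to 5265 RPM, 3.42-fold higher (log2 1.77, 1.75 to 1.79). Within them the 16-nt form was 5.47-fold higher (213 and 1166 RPM), the 17-nt form 3.66-fold (200.3 and 734 RPM), the 18-nt form 3.24-fold (418 and 1354 RPM) and the 19-nt form 2.83-fold (710 and 2011 RPM). The shorter the form, the larger was its ratio. The 3723 RPM by which the forms of 16 to 19 nt were higher is smaller than the 16680 RPM by which the 22-nt form was lower. The tables hold no read under 16 nt, so shorter forms were not measured.

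With oxidation the pattern by length was uneven. The 22-nt form was 2.40-fold lower at 30 days (23102 and 9613 RPM). The 18-nt form was 2.98-fold higher (551 and 1641 RPM; log2 1.57, 1.49 to 1.66) and the 19-nt form 1.76-fold (277 and 488 RPM). The 16-nt form was 1.18-fold (307 and 364 RPM) and the 17-nt form 1.103-fold higher (319 and 352 RPM). TMM scaling would add 0.88 to each of these log2 ratios, which leaves their order as it is.

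Forms that differ by 1 base differed in their oxidation ratio. At 30 days the 18-nt form was at 1354 RPM without and 1641 RPM with oxidation, 1.21-fold higher (log2 0.28, 0.25 to 0.30), whereas the 19-nt form was at 2011 and 488 RPM, 4.12-fold lower (log2 -2.04, -2.08 to -2.00). At 3 days the 18-nt form was 1.32-fold higher (log2 0.40, 0.31 to 0.49) and the 19-nt form 2.56-fold lower (log2 -1.36, -1.48 to -1.24). TMM scaling shifts log2 ratios at 3 days by -0.40, which takes the 18-nt form just below 0, while the 19-nt form stays lower under each scaling. As a ratio within each library, reads of 18 nt per read of 19 nt numbered 0.590 and 0.673 without oxidation and 1.99 and 3.36 with it, at 3 and 30 days. Both oxidized libraries were thus above both untreated ones, and no scaling touches this ratio.

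The 23-nt form was also low after oxidation, 2.75-fold lower at 3 days (711 and 259 RPM) and 3.33-fold at 30 days (623 and 187 RPM). Per 100 reads of the 22-nt form there were 2.25 and 4.18 of 23 nt without oxidation and 1.12 and 1.95 with it, at 3 and 30 days. The forms of 16 and 17 nt changed side between the ages. At 3 days they were 1.44-fold and 1.59-fold higher after oxidation (log2 0.53 and 0.67), and at 30 days 3.20-fold and 2.08-fold lower (log2 -1.68 and -1.06). The 22-nt form, which carries most of the arm, stood near the whole arm, at -0.45 and -0.63, and turned with it when miR-263a-5p was left out of the totals, which shifts log2 ratios by 0.54 and 0.99. The 24-nt form had 96, 29, 125 and 108 reads in the order of 3 and 30 days, each without and with oxidation; its share was higher after oxidation at both ages.

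**Figure D3:**
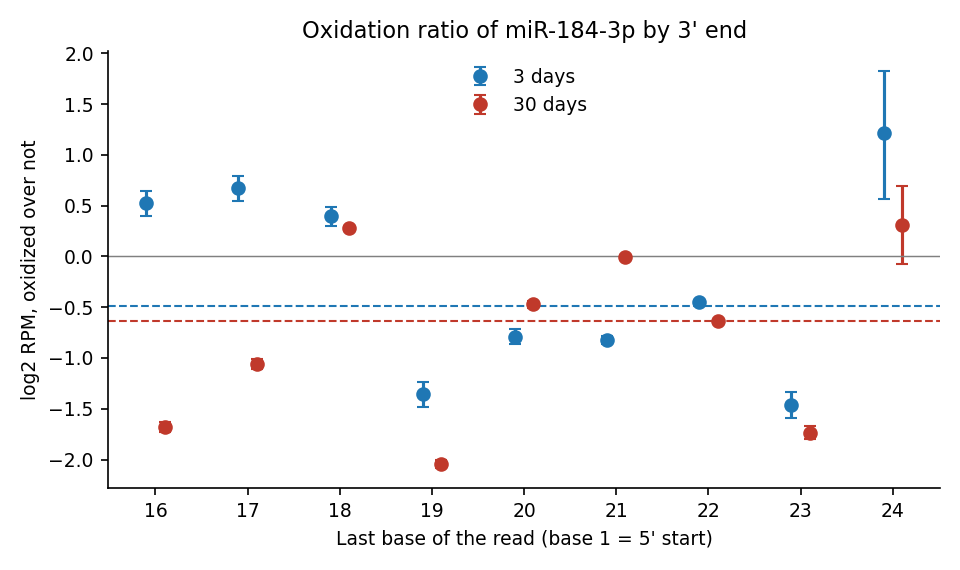
Oxidized over untreated RPM of miR-184-3p reads from base 1 by their last base, on the log2 scale, at 3 days (blue) and 30 days (red); bars are exact 95% intervals of counting error, and dashed lines the whole arm at -0.49 and -0.64. Base 18 lies above 0 at both ages (0.40 and 0.28; at 3 days not with TMM scaling) beside base 19 at -1.36 and -2.04, and bases 16 and 17 are above 0 at 3 days and below it at 30 days.

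The mean read length of miR-184-3p was 21.68 nt at 3 days and 20.91 nt at 30 days without oxidation, 0.77 nt shorter. With oxidation it was 21.64 nt at 3 days and 0.64 nt shorter at 30 days. These differences depend on the shortest reads: they were -0.43 and -0.53 nt with an overlap of at least 18 nt, which drops reads of 16 and 17 nt, and -0.030 and -0.13 nt over reads of 20 to 24 nt. The oxidized library differed from the untreated one in mean length by -0.046 nt at 3 days and by 0.088 nt at 30 days. Shorter reads at 30 days were common in these libraries: of 103 arms with at least 1000 reads in both untreated libraries, 61.2% were shorter by more than 0.1 nt at 30 days and 4.85% longer, with a median difference of -0.14 nt. In the oxidized libraries these were 60.6% and 0.0% of 66 arms, with the same median of -0.14 nt. miR-184-3p had the 6th lowest difference of the 103 arms and the 3rd lowest of the 66. Its rank without oxidation followed the cutoff on reads. It was 7th lowest of 160 arms with at least 100 reads in both untreated libraries and 3rd of 55 with at least 10000. Of 19 arms with at least 100000 it was the lowest, ahead of miR-981-3p at -0.61 nt. As miR-184 was picked for its shorter reads, these ranks are a description.

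Its share of reads 3 or more bases short was 18.2 percentage points higher at 30 days without oxidation, against a median of 0.579 points over the 103 arms, the 7th highest. Over all reads other than those of miR-184, forms of 16 to 19 nt were 0.650% at 3 days and 1.89% at 30 days without oxidation, and 1.29% and 1.39% with it; their part in the difference of miR-184-3p was not tested. Reads of miR-184-3p that began after base 1, and so lacked bases at the 5′ end, were 0.222% and 0.318% of the arm without oxidation, and 0.138% and 0.149% with it.

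**Figure D4:**
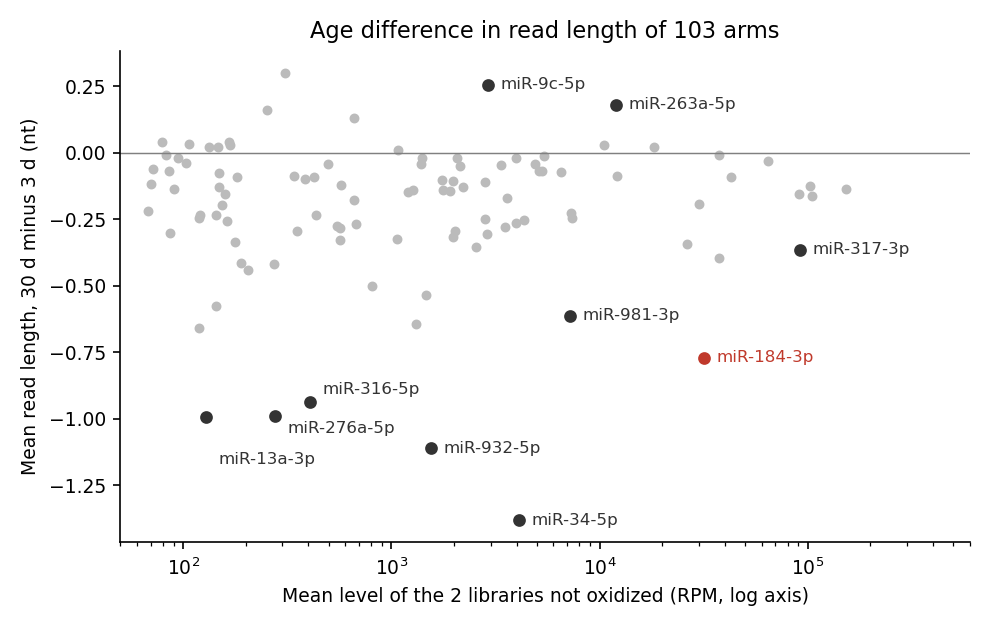
Difference in mean read length between 30 and 3 days without oxidation, in nt, against the mean level of the same libraries in RPM on a log axis, for 103 arms (points). miR-184-3p (red) lies at -0.77 nt, and the arms with larger differences, from miR-316-5p at -0.94 to miR-34-5p at -1.38, lie at lower levels.

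The 5 arms with a larger difference without oxidation were miR-34-5p (-1.38 nt), miR-932-5p (-1.11), miR-13a-3p (-0.99), miR-276a-5p (-0.99) and miR-316-5p (-0.94). miR-13a-3p shares most of its bases with miR-13b-3p, so that its short reads are uncertain. The largest differences in the other direction were those of an unnamed arm (0.30 nt), miR-9c-5p (0.26), miR-263a-5p (0.18), miR-9b-5p (0.16) and miR-275-3p (0.13). A list of 3 arms shortened with age, miR-316-5p, miR-932-5p and miR-981-3p, was drawn up with earlier results of these data known. All 3 were shorter by more than 0.1 nt without oxidation, with a median of -0.94 nt, next to 61.2% of all arms. Since the list was so chosen, this is a description only. Of 6 arms recalled as trimmed at the 3′ end, of which the role of Nibbler is certain for miR-34-5p, 5 were shorter by more than 0.1 nt and miR-263a-5p was longer, with a median of -0.23 nt, next to the 61.2% and -0.14 nt of all arms. With oxidation 3 of these 6 were shorter and 0 longer, with a median of -0.094 nt, next to the 60.6%, 0.0% and -0.14 nt of all arms in those libraries; of the other list miR-981-3p alone had enough reads (-0.99 nt).

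The arms below, from these lists, show what such a shift looks like in sequence. Each line gives the most abundant read of the arm at 3 days without oxidation, 5′ to 3′ in the DNA letters of the tables, and capitals mark the bases missing from the shorter form whose share was most increased at 30 days.
miR-34-5p: tggcagtgtggttagctgGTT
miR-316-5p: tgtctttttccgcttactgGC
miR-932-5p: tcaattccgtagtgcattgCAGT
miR-981-3p: ttcgttgtcgacgaaacctGCA
The form without the capitals made up 13.1% of miR-34-5p at 3 days and 45.6% at 30 days. For miR-316-5p it made up 9.70% and 42.7%, for miR-932-5p 4.98% and 29.2%, and for miR-981-3p 2.52% and 15.8%. These shorter forms of 18 or 19 nt lie in the same range of lengths as the forms of miR-184-3p that were higher at 30 days. Each was chosen by its rise in these libraries, and list members with smaller differences or longer reads are not shown. The likeness in length is therefore a description.

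The reads of miR-184-5p were few. At 3 days without oxidation 21 of 63 reads from base 1 ended at base 21, the catalogue end, and 40 at base 22. At 30 days 63 of 125 ended at base 21 and 51 at base 22. With oxidation 241 of 333 and 814 of 1123 ended at base 21, and 86 and 259 at base 22. For each read ending at base 22 there were 0.525 and 1.24 ending at base 21 without oxidation and 2.80 and 3.14 with it. The ratio was thus higher after oxidation at both ages, and below 1 at 3 days without oxidation. An age difference was not resolved with oxidation, where ends at base 21 made up 72.4% (67.2% to 77.1%) and 72.5% (69.8% to 75.1%). Without oxidation the intervals at 3 and 30 days overlapped for base 21 (21.95% to 46.3% and 41.3% to 59.5%). For base 22 they lay just apart (50.4% to 75.3% and 32.1% to 49.9%). The mean length of the arm differed with age by -0.48 nt without and -0.068 nt with oxidation, and with oxidation by -0.49 nt at 3 days and -0.079 nt at 30 days. The 21-nt form was 88.4-fold higher after oxidation at 3 days (log2 6.47, 5.82 to 7.18) and the 22-nt form 16.6-fold (log2 4.05, 3.49 to 4.63), with intervals that do not overlap; at 30 days they were 18.5-fold (log2 4.21, 3.84 to 4.60) and 7.28-fold higher (log2 2.86, 2.43 to 3.33). Reads shorter than 21 nt were 0%, 1.802%, 7.09% and 4.69% of the arm, in the order of 3 days without and with oxidation and 30 days without and with it, and their intervals overlap (up to 5.69%, 0.664% to 3.88%, 3.29% to 13.03% and 3.53% to 6.09%).

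Over the 4 libraries, the levels of 98 arms with a mean of at least 100 RPM were compared with those of miR-184-3p after centring log2 RPM on its own mean. The most alike were miR-285-3p, with a root mean square difference of 0.148, miR-193-5p with 0.148 and an unnamed arm with 0.163. The name miR-285-3p was given to the more abundant of 2 arms that its lookup matched. miR-285-3p was at 341 and 206 RPM without oxidation (3 and 30 days) and at 269 and 170 RPM with it. miR-193-5p was at 1740 and 791 RPM without and 1049 and 563 RPM with oxidation. All 3 were highest at 3 days without oxidation and lowest at 30 days with it, as miR-184-3p was; the arms share the same 4 libraries and their depths. In read length they stood closer to the other arms, with age differences of -0.42 nt for miR-285-3p and -0.14 nt for miR-193-5p without oxidation.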

How the data were processed

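The authors deposited 1 table of raw counts per library, each row a read sequence and its number of reads; that these are counts was read from the values, since the tables have no header. The kit was Illumina's TruSeq for small RNA, per the labels' protocols. The submitters' processing notes list CASAVA 1.8.2, Bowtie and dm3 without their roles; for adapter trimming nothing is given in the sources used here. Reads were 16 to 42 nt long, and the 65 to 165 sequences that a table repeats, always with equal counts, were counted once. No read matched the first 15 bases of miR-184-3p and then left its 22-nt sequence.

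The miR-184 arms were found by their first 7 bases, recalled from the public catalogue, and the annotated lengths. The sequence itself is not printed here. Other arms were grouped by overlaps of at least 15 nt (78 sequences fitted more than 1 arm equally and were left out, at most 0.0558% of a library), and 24 of 26 arms looked up were named by 9 recalled first bases, with up to 8 more where arms begin alike. For miR-285-3p and miR-317-3p the lookup matched 2 arms each, and the name went to the more abundant one. RPM are reads per 1000000 reads of a library's own table. Arms entered level comparisons with a mean of at least 100 RPM and 50 reads, and length comparisons with 1000 reads in each library; called means at least 2-fold, or more than 0.1 nt. Counts under 3 were set to 3, the limit that a count of 0 allows, in the ratios counted. Named arms are the members, the 5 largest length differences each way, the 3 most alike profiles, miR-263a-5p, 2 lists and the tissue markers; an arm that matched no looked-up name is called unnamed. The members and lists were chosen with earlier results of these data known. The interval of the age change of the oxidation ratio uses Poisson variances. Level ratios of arms with at least 1000 reads were tested on simulated reads, drawn from the grouped reads of the 3-day untreated library and grouped anew. Whether each simulated read returned to its own arm was not compared. Changes in read length and 3′ ends were not simulated. Python 3.11.15, scipy 1.17.1, edgeR 4.0.16 (TMM factors) and DESeq2 1.42.0 (size factors) were used; no count test was run, as each group has 1 library. Alternatives were other scalings, match rules, read subsets and filters.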

Additional observations from a re-analysis of the deposited data

Results flagged for a closer look

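For 4 of the 3′ ends of miR-184-3p, the share of reads differed between oxidized and untreated libraries in opposite directions at the 2 ages. With 1 library per group the difference was not tested. On the log2 scale, oxidized over untreated, the share ending at base 16 was at 1.02 at 3 days and -1.04 at 30 days. That ending at base 17 was at 1.17 and -0.42. For base 20 the values were -0.30 and 0.17, and for base 21 they were -0.33 and 0.63. Shares within an arm do not depend on the scaling of libraries. The 3-day oxidized library is the shallowest, but 643 and 668 of its reads stand behind bases 16 and 17.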

How the results depend on the processing

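No paired analysis was possible because each group holds 1 library, so that no replicate numbers pair the samples; a fit of age plus oxidation without their interaction was not run. Log2 ratios of miR-184-3p, in the order oxidation at 3 days, oxidation at 30 days, age without oxidation, age with oxidation and age change of the oxidation ratio, were -0.89, -0.088, -0.80, 0.0043 and 0.80 with TMM scaling, -0.51, 0.0034, -0.77, -0.25 and 0.52 with median-of-ratios scaling, and 0.046, 0.35, -0.71, -0.41 and 0.31 with totals without miR-263a-5p. With an overlap of at least 18 nt, which drops reads of 16 and 17 nt, they were -0.51, -0.59, -0.83, -0.91 and -0.078. With every listed row counted, oxidation at 30 days was at -0.63. Log2 ratios of miR-184-5p were 4.95 (oxidation, 3 days), 4.22 (oxidation, 30 days), 0.11 (age with oxidation) and -0.72 (age change) with TMM scaling. With median-of-ratios scaling the last 3 were 4.31, -0.15 and -1.01. Without miR-263a-5p in the totals, oxidation at 3 and 30 days and age with oxidation were at 5.88, 4.66 and -0.30.

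The age difference in mean length of miR-184-3p, without and with oxidation, was -0.030 and -0.13 nt over reads of 20 to 24 nt, which leaves out reads of 16 to 19 nt, and -0.43 and -0.53 nt with an overlap of at least 18 nt. Over reads of 18 nt and longer, an alternative chosen after seeing the data, it was -0.43 and -0.53 nt. The percentage of reads shorter than the catalogue arm (18.005% and 34.9% without, 16.4% and 35.9% with oxidation, at 3 and 30 days) was 17.8% and 34.7% without oxidation over reads from base 1, 17.8% and 34.6% by the 3′ end alone, and 17.04%, 29.1%, 14.5% and 32.8%, in the same order, with an overlap of at least 18 nt.

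Counts of arms past 2-fold follow the filter, since fewer or more arms enter. With a mean of at least 10 RPM, 62 were higher and 72 lower after oxidation at 3 days, 45 and 79 at 30 days, and 1 and 47 with age after oxidation. With no filter on the mean these were 114 and 95, 93 and 139, and 14 and 103, and 43 and 41 with age without oxidation. With TMM scaling 3 were higher with age without oxidation, and 12 higher and 6 lower with oxidation, against 5, 0 and 26. Without oxidation, arms shorter by more than 0.1 nt at 30 days numbered 97 of 160 with at least 100 reads and 35 of 55 with at least 10000. With oxidation they numbered 65 of 109 and 16 of 26. Longer arms numbered 8 and 2 without oxidation, and 8 with at least 100 reads with it. Values of miR-184-5p without oxidation rest on 63 and 127 reads, and 3 counts are 1.43 RPM in the 3-day oxidized library against 0.173 to 0.248 RPM elsewhere.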
